A study of Rattus norvegicus with 18 samples.

Results

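Collagen genes were taken as every gene whose symbol in the array annotation is Col, a number, the letter a and a number, which is the form used for collagen chains. Only probe sets with exactly 1 symbol were used, and each gene was read from its probe set with the highest mean signal. The rule gave 41 collagen genes of 14217 genes measured, from 58 probe sets, and it used no difference between samples. Of the 41 genes, 14 had more than 1 probe set.

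RNA was taken from scrapings of the mucosa of the jejunum, a stretch of small intestine between duodenum and ileum, in male Sprague Dawley rats aged 6 to 8 weeks. The rats were dosed by mouth with vehicle or with an inhibitor of the cell cycle kinases CDK4 and CDK6, and 18 Affymetrix arrays fall into 6 groups of 3. The groups are vehicle (0.5% methyl cellulose), palbociclib at 30 mg/kg/day, palbociclib at 100 mg/kg/day, abemaciclib at 36 mg/kg/day, abemaciclib at 120 mg/kg/day and ribociclib at 300 mg/kg/day. Arrays are named here by compound, dose and the replicate letter A, B or C. Abemaciclib and ribociclib were dissolved in another vehicle than the vehicle group received, so compound and solvent cannot be told apart in those comparisons. The design text gives 4 or 15 days of dosing and which of the durations an array had is not labelled. Nor is it labelled which animal an array came from, so p-values reflect only how far these arrays spread, which may be technical. Abemaciclib 120 B is titled with a dose of 100 mg/kg and labelled with 120 mg/kg. It was kept under its treatment label, and calls that change when it is left out are given with and without it.

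Collagens are secreted or membrane-bound proteins of 3 chains wound into a triple helix. Fibrillar types I, III and V form the fibres of the intestinal wall, type VI forms beaded filaments around cells, and type IV is the network of basement membranes. In the gut wall, fibroblasts and smooth muscle make most fibrillar and type VI collagen, while type XVII is a membrane collagen of epithelial cells at their attachment to the basement membrane. Collagen messenger RNA in a scraping therefore comes largely from tissue under the epithelium, and in bulk samples fewer cells of a type and less RNA per cell cannot be told apart.

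The tissue label was checked against marker genes. Epithelial markers were high on every array, with log2 signals of 13.46 to 13.84 for Epcam, 13.23 to 13.63 for the villus protein Vil1 and 13.59 to 13.83 for the keratin Krt8. Stromal markers were present, and several were uneven. Log2 signals were 4.46 to 9.81 for the fibroblast proteoglycan Dcn, 5.92 to 9.87 for the fibroblast receptor Pdgfra and 5.75 to 8.88 for the smooth muscle myosin Myh11. The smooth muscle marker Acta2 was more even, at 7.33 to 8.19. The array medians over all probe sets lay between 5.41 and 5.51, and the correlation of pairs of arrays between 0.918 and 0.993. Of the collagen genes, 19 had a mean log2 signal above the highest array median of 5.51. The other 22 lay at or below it, and detection calls were not used, so their signals are not shown to be above background. The 19 brighter genes include 6 of 11 fibrillar chains, 3 of 5 measured type IV chains, 4 of 5 measured type VI chains and both multiplexins. They also include Col9a2, Col12a1 and Col16a1 among the 9 measured fibril-associated collagens, and Col17a1 among 4 membrane collagens.

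Few collagen genes differed between the treatment groups, while many brighter ones differed widely between arrays of the same group. The F test of limma over the 6 groups called 4 of the 41 collagen genes at an adjusted p under 0.05, which is 9.76% of them, against 22.6% of all genes tested. The 4 were Col17a1 (adjusted p = 0.00698 in limma), Col9a1 (adjusted p = 0.00584 in limma), Col9a3 (adjusted p = 0.00402 in limma) and Col8a1 (adjusted p = 0.0462 in limma). No fibrillar, type IV or type VI chain was among them. Without abemaciclib 120 B the count was 7 (17.1%, against 20.6% of all genes in that setting), and the fibrillar chain Col1a1, the type IV chain Col4a1 and the type VI chain Col6a2 were then called. The call of Col8a1 held in 7 of 26 alternative settings, whereas that of Col17a1 held in 27 of 27.

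**Figure D1:**
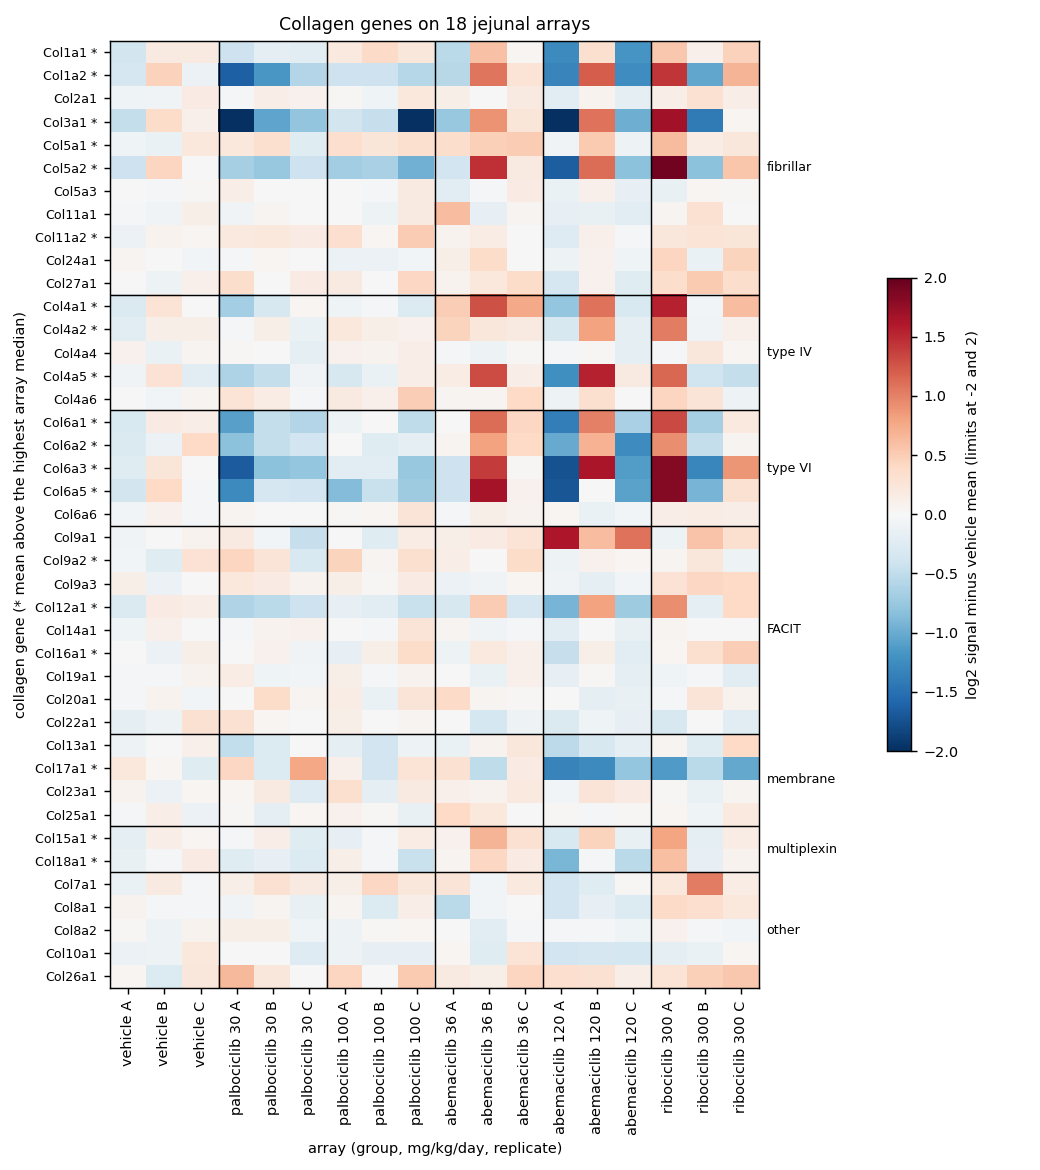
Each row is a collagen gene, grouped by class, and each column an array. The colour is the log2 signal minus the mean of the 3 vehicle arrays, limited to -2 and 2, and an asterisk marks the 19 genes with a mean above the highest array median of 5.51. The fibrillar, type IV and type VI genes with an asterisk are mostly red on ribociclib 300 A, abemaciclib 36 B and abemaciclib 120 B and mostly blue on abemaciclib 120 A.

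Among the fibrillar chains, Col3a1, the single chain of type III collagen, varied most between arrays. Its log2 signal was 7.80, 8.65 and 8.38 with vehicle, 6.09, 7.22 and 7.49 with palbociclib 30, and 7.92, 7.81 and 6.26 with palbociclib 100. It was 7.52, 9.17 and 8.51 with abemaciclib 36, 5.54, 9.37 and 7.29 with abemaciclib 120, and 9.96, 6.86 and 8.31 with ribociclib 300. The lowest and highest of the 18 arrays, abemaciclib 120 A and ribociclib 300 A, differed 21.3-fold. The palbociclib 30 arrays all lay below the vehicle arrays, and every other treated group overlapped with vehicle. The standard deviation of Col3a1 within groups was 1.18 on the log2 scale, at the 99.5th percentile of all genes.

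Col1a2 and Col1a1 encode the chains of type I collagen, the main fibre of connective tissue. Col1a2 gave log2 signals of 6.09, 6.88 and 6.31 with vehicle, 4.79, 5.27 and 5.83 with palbociclib 30, and 6.01, 6.01 and 5.86 with palbociclib 100. The values were 5.87, 7.50 and 6.70 with abemaciclib 36, 5.11, 7.63 and 5.19 with abemaciclib 120, and 7.85, 5.39 and 7.11 with ribociclib 300. Both palbociclib groups lay below all vehicle arrays, and the abemaciclib 120 and ribociclib groups each held arrays on either side of them. Col1a1 gave 6.16, 6.71 and 6.70 with vehicle, 6.11, 6.32 and 6.31 with palbociclib 30, and 6.71, 6.91 and 6.74 with palbociclib 100. Its signals were 5.99, 7.11 and 6.56 with abemaciclib 36, 5.25, 6.85 and 5.34 with abemaciclib 120, and 7.06, 6.62 and 6.99 with ribociclib 300. Col1a1 was thus lowest on abemaciclib 120 A and C, and abemaciclib 120 B lay above the vehicle arrays.

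Col5a2, a chain of type V collagen that is built into type I fibres, gave 5.67, 6.50 and 6.07 with vehicle, 5.41, 5.32 and 5.66 with palbociclib 30, and 5.38, 5.43 and 5.12 with palbociclib 100. It gave 5.70, 7.54 and 6.25 with abemaciclib 36, 4.43, 7.19 and 5.25 with abemaciclib 120, and 8.01, 5.26 and 6.64 with ribociclib 300, a 12-fold range over the arrays. Both palbociclib groups lay below every vehicle array. Col5a2 lies next to Col3a1 in the rat genome, and both were highest on ribociclib 300 A and lowest on abemaciclib 120 A. Col5a1, the partner chain of Col5a2, varied less, 6.08 to 6.42 with vehicle and 5.96 to 6.84 over the treated arrays. The last bright fibrillar chain, Col11a2, lay between 5.62 and 6.40. The dimmer fibrillar chains Col2a1, Col5a3, Col11a1, Col24a1 and Col27a1, which include the cartilage collagens, stayed between 3.51 and 5.41 on every array.

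The 250 bases before the annotated start of Col1a2 are shown because this is the type I chain whose signal moved most between arrays and the promoter table holds no entry for Col1a1 or Col3a1. The sequence is from RefSeq, build GRCr8, chr4:33518307-33518556 on the plus strand, and capitals mark ATTGG, which reads as CCAAT on the other strand, and TATAAA.
Col1a2: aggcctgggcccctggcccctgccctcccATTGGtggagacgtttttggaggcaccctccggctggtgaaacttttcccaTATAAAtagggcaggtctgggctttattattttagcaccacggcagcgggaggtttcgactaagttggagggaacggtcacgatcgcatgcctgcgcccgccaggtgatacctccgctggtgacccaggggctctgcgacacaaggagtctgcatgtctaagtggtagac
The motif ATTGG begins 221 bases and TATAAA 170 bases before the annotated start. Of the 32 collagen genes with an entry in the promoter table, 9 (28.1%) held CCAAT or ATTGG in these 250 bases, against 34.0% of 33469 promoters of the same length. The 33469 are all entries of that table, not reduced to the measured genes or to 1 entry per gene. TATAAA or TTTATA was in 4 of 32 (12.5%, against 12.9%) and GGGCGG or CCGCCC in 18 of 32 (56.2%, against 30.5%). The Col1a2 window holds the first and the second of these motifs and not the third. Both strands were searched, none of the marked matches overlaps another, and a match of letters is a description and not a binding site.

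Type VI chains followed the same arrays. Col6a3, the long chain of type VI collagen, gave log2 signals of 6.53, 7.01 and 6.78 with vehicle, 5.11, 5.96 and 6.00 with palbociclib 30, and 6.55, 6.55 and 6.02 with palbociclib 100. It gave 6.37, 8.17 and 6.80 with abemaciclib 36, 5.04, 8.41 and 5.66 with abemaciclib 120, and 8.61, 5.47 and 7.66 with ribociclib 300. Arrays of each of the last 2 groups lay above and below all vehicle arrays, with an 11.9-fold range over the 18 arrays. Col6a1, a short chain, gave 7.11, 7.59 and 7.55 with vehicle, 6.33, 6.93 and 6.82 with palbociclib 30, and 7.31, 7.42 and 6.91 with palbociclib 100. It gave 7.40, 8.53 and 7.82 with abemaciclib 36, 6.03, 8.43 and 6.76 with abemaciclib 120, and 8.74, 6.75 and 7.61 with ribociclib 300. For Col6a1, as for Col6a3, the 3 palbociclib 30 arrays lay below the vehicle arrays.

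Col6a2, which lies beside Col6a1 in the genome and encodes the other short chain, gave 5.85, 6.02 and 6.54 with vehicle, 5.32, 5.67 and 5.75 with palbociclib 30, and 6.14, 5.90 and 5.94 with palbociclib 100. It gave 6.19, 6.94 and 6.54 with abemaciclib 36, 5.13, 6.83 and 4.88 with abemaciclib 120, and 7.07, 5.67 and 6.19 with ribociclib 300. Its lowest array was abemaciclib 120 C, and ribociclib 300 A was its highest. Col6a5 lay between 5.17 on abemaciclib 120 A and 8.71 on ribociclib 300 A, an 11.6-fold range, with 6.52 to 7.27 on the vehicle arrays. Its genomic neighbour Col6a6 stayed between 3.46 and 3.84, below all array medians.

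Col4a1 and Col4a2 encode the widely expressed chains of the type IV network and are read in opposite directions from a shared start region. Col4a1 gave 5.27, 5.83 and 5.56 with vehicle, 4.88, 5.23 and 5.59 with palbociclib 30, and 5.47, 5.53 and 5.28 with palbociclib 100. It gave 6.05, 6.83 and 6.31 with abemaciclib 36, 4.78, 6.64 and 5.25 with abemaciclib 120, and 7.09, 5.50 and 6.17 with ribociclib 300. The abemaciclib 36 arrays all lay above the vehicle arrays. Col4a2 gave 6.73, 7.07 and 7.07 with vehicle, 6.92, 7.07 and 6.83 with palbociclib 30, and 7.16, 7.08 and 7.05 with palbociclib 100. It gave 7.40, 7.19 and 7.14 with abemaciclib 36, 6.64, 7.77 and 6.78 with abemaciclib 120, and 7.98, 6.89 and 7.06 with ribociclib 300. Its highest array, ribociclib 300 A, and its lowest, abemaciclib 120 A, were those of Col4a1. They were also those of Col3a1, Col5a2, Col12a1 and other bright chains.

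The 76 bases between the starts of this pair are shown because both genes are read outward from them. They are from RefSeq, build GRCr8, chr16:84885521-84885596, on the plus strand, and capitals mark CCGCCC, which reads as GGGCGG on the other strand.
Col4a1 and Col4a2: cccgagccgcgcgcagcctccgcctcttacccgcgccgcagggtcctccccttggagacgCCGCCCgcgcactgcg
The motif begins 16 bases before the annotated start of Col4a1. Among the other type IV chains, the basement membrane chain Col4a5 lay between 5.41 on abemaciclib 120 A and 8.18 on abemaciclib 120 B, 2 arrays of the same group. Its partner Col4a6 lay between 5.05 and 5.64 and Col4a4, a chain of the kidney filter, between 3.80 and 4.22.

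Multiplexins are basement membrane collagens that carry sugar chains. Col18a1, the precursor of endostatin, gave 6.46, 6.58 and 6.77 with vehicle, 6.36, 6.44 and 6.33 with palbociclib 30, and 6.72, 6.57 and 6.16 with palbociclib 100. It gave 6.65, 7.02 and 6.77 with abemaciclib 36, 5.68, 6.56 and 6.06 with abemaciclib 120, and 7.20, 6.44 and 6.67 with ribociclib 300. Abemaciclib 120 A and C lay below all vehicle arrays, and abemaciclib 120 B lay within their range. Col15a1 gave 6.34, 6.64 and 6.56 with vehicle, 6.50, 6.65 and 6.28 with palbociclib 30, and 6.35, 6.48 and 6.65 with palbociclib 100. It gave 6.60, 7.19 and 6.82 with abemaciclib 36, 6.20, 6.96 and 6.37 with abemaciclib 120, and 7.31, 6.31 and 6.66 with ribociclib 300. Every treated group overlapped with the vehicle arrays for Col15a1.

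**Figure D2:**
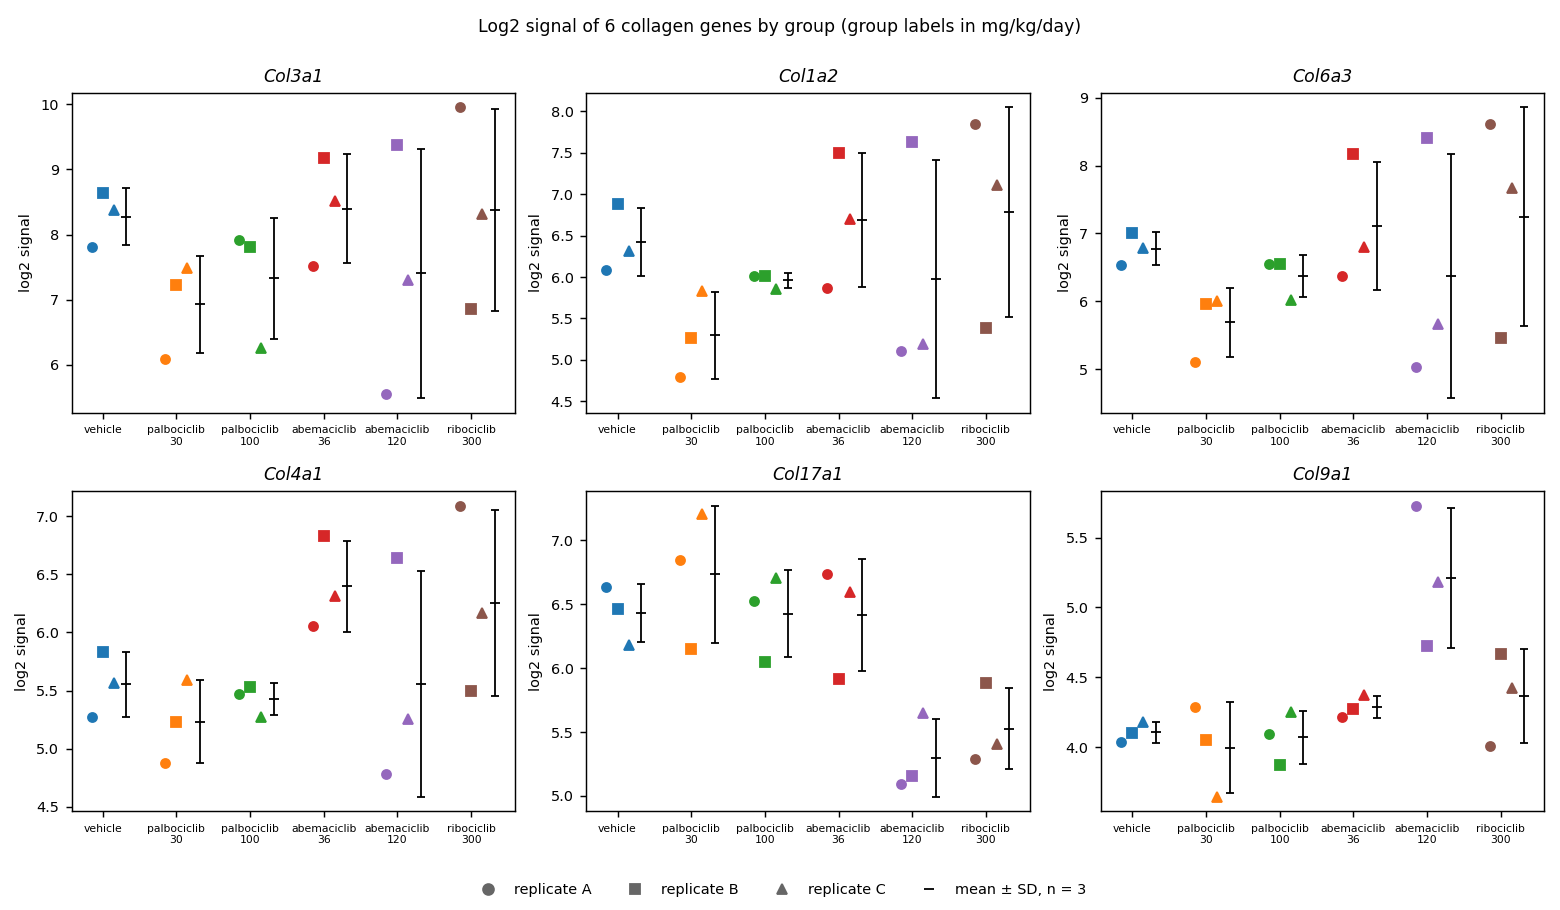
Log2 signal of 6 collagen genes on the 18 arrays, with a symbol for each replicate letter and the mean ± SD of each group of 3 beside it; the y axes do not start at 0. Col3a1, Col1a2, Col6a3 and Col4a1 spread widely within the abemaciclib 120 and ribociclib 300 groups, while Col17a1 lies lower and Col9a1 higher on all 3 abemaciclib 120 arrays than on any vehicle array.

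Col17a1 encodes type XVII collagen, the epithelial membrane collagen of hemidesmosomes, and it behaved differently from the fibre-forming chains. Its log2 signal was 6.64, 6.47 and 6.18 with vehicle, 6.84, 6.15 and 7.21 with palbociclib 30, and 6.52, 6.05 and 6.70 with palbociclib 100. It was 6.73, 5.91 and 6.59 with abemaciclib 36, 5.09, 5.16 and 5.65 with abemaciclib 120, and 5.29, 5.88 and 5.41 with ribociclib 300. All abemaciclib 120 and ribociclib arrays lay below all vehicle arrays, including abemaciclib 120 B and ribociclib 300 A, on which the fibrillar chains were high. With abemaciclib 120 Col17a1 fell by 1.13 on the log2 scale (SE 0.29), a 2.19-fold difference (adjusted p = 0.0117 in limma). With ribociclib the log2 difference was -0.90 (SE 0.29) and did not pass (adjusted p = 0.0902 in limma). Between abemaciclib 120 and abemaciclib 36 the log2 difference was -1.11 (SE 0.29, adjusted p = 0.0252 in limma). That call held in 22 of 28 settings, and the adjusted p in limma was 0.0772 with only the groups compared, 0.119 with RNA quality as a covariate, 0.115 and 0.0615 without abemaciclib 36 A or C, and 0.124 and 0.0643 without abemaciclib 120 A or B.

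The fall of Col17a1 with abemaciclib 120 was called in 25 of 28 alternative settings. The adjusted p in limma was 0.0517 with RNA quality as a covariate, 0.0514 without vehicle A and 0.0611 without abemaciclib 120 A. RNA quality was read from beta-actin control probe sets, as the log2 signal at the 3′ end of the transcript minus that at its 5′ end. It was 0.65, 0.79 and 0.57 on the vehicle arrays and 1.05, 0.91 and 0.86 on the abemaciclib 120 arrays.

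Col9a1, a chain of the fibril-associated type IX collagen known from cartilage, moved the other way. It gave log2 signals of 4.03, 4.10 and 4.18 with vehicle, 4.29, 4.05 and 3.65 with palbociclib 30, and 4.09, 3.87 and 4.25 with palbociclib 100. It gave 4.22, 4.27 and 4.37 with abemaciclib 36, 5.73, 4.72 and 5.18 with abemaciclib 120, and 4.01, 4.67 and 4.42 with ribociclib 300. The 3 abemaciclib 120 arrays lay above every other array, and only abemaciclib 120 A exceeded the array medians. Col9a1 rose by 1.11 on the log2 scale (SE 0.22) with abemaciclib 120 against vehicle (adjusted p = 0.00216 in limma), a 2.15-fold difference between signals near background. The call held in all 27 alternative settings, with a highest adjusted p of 0.0144 in limma, without abemaciclib 120 A. Against abemaciclib 36 the difference was 0.92 (SE 0.22, adjusted p = 0.0153 in limma), a call that held in 21 of 27 settings. The adjusted p in limma was 0.0570 with centring, 0.0874 with only the groups compared, 0.0706 with RNA quality as a covariate, 0.0623 and 0.0518 without abemaciclib 36 A or B, and 0.0971 without abemaciclib 120 A.

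The other type IX chains did not share this rise. Col9a2 lay between 5.37 and 5.88 with vehicle and between 5.50 and 5.69 with abemaciclib 120. Col9a3 gave 3.98, 3.74 and 3.86 with vehicle, 3.79, 3.68 and 3.81 with abemaciclib 120, and 4.15, 4.27 and 4.25 with ribociclib 300. Its ribociclib arrays were the highest of the 18, and it rose by 0.36 on the log2 scale (SE 0.08) with ribociclib (adjusted p = 0.0172 in limma). This small difference, at signals below the array medians, lost its call without vehicle B (adjusted p = 0.107 in limma), vehicle C (0.0643) or ribociclib 300 C (0.0525), and when only the 2 groups were fitted (0.135). Col19a1, the neighbour of Col9a1 in the genome, lay between 3.71 and 4.08 on all arrays.

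The 250 bases before the starts of Col17a1 and Col9a1 are shown because these are the 2 collagen genes called for abemaciclib 120. Both are from RefSeq, build GRCr8, at chr1:256518858-256519107 on the minus strand for Col17a1 and chr9:34081114-34081363 on the plus strand for Col9a1. Capitals mark TATAAA and ATTGG.
Col17a1: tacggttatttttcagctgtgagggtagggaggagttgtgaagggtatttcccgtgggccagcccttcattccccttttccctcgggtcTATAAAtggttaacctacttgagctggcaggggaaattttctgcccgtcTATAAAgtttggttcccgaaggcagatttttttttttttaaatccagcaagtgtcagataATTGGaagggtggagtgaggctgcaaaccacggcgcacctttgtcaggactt
Col9a1: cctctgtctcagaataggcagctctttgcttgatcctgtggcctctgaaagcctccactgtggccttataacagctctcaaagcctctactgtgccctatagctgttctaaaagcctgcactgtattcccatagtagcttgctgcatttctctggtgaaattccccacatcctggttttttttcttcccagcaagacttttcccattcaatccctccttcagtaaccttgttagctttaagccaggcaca
The Col17a1 window holds TATAAA beginning 161 and 112 bases, and ATTGG beginning 52 bases, before the annotated start. The Col9a1 window holds none of the 3 motifs searched.

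Col12a1, a fibril-associated collagen of dense connective tissue, lay between 5.97 and 6.42 with vehicle, with abemaciclib 120 A lowest at 5.33 and ribociclib 300 A highest at 7.19, the same arrays as for Col3a1. Col16a1 lay between 5.23 and 6.19. Col14a1, a fibril-associated collagen of fibroblasts, lay between 4.17 and 4.36 with vehicle and between 4.04 and 4.52 over all arrays, below the array medians. Col8a1, a short-chain collagen of vessel walls, gave 4.69, 4.59 and 4.61 with vehicle, 4.24, 4.46 and 4.36 with abemaciclib 120, and 5.01, 4.97 and 4.84 with ribociclib 300. The 2 treated groups lay on opposite sides of vehicle, and neither contrast passed (adjusted p = 0.191 and 0.211 in limma). Col7a1, the collagen of anchoring fibrils, lay between 4.02 and 4.82 except on ribociclib 300 B, at 5.44. The other 9 dim genes outside the fibrillar, type IV and type VI classes, which were Col8a2, Col10a1, Col13a1, Col19a1, Col20a1, Col22a1, Col23a1, Col25a1 and Col26a1, lay between 3.36 and 5.63.

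The arrays can be ordered by the 19 brighter collagen genes. Ribociclib 300 A was the highest of the 18 arrays for 13 of these genes and among the 3 highest for 15. Abemaciclib 36 B was among the 3 highest for 13 and abemaciclib 120 B for 12. Abemaciclib 120 A was the lowest array for 15 of the 19 and above the vehicle mean for 0. Abemaciclib 120 C was among the 3 lowest for 11 and palbociclib 30 A for 9. Replicates of a treated group therefore stood at opposite ends of the order, most of all with abemaciclib 120.

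The spread within groups was wide for these genes. The median standard deviation within groups was 0.507 for the 19 brighter collagen genes on the log2 scale, against 0.304 for the 9046 genes with a mean above the same array median. It was 0.161 for the 22 dimmer collagen genes and 0.242 for all genes. Of the 19, 7 lay above the 95th percentile of all genes, 0.639, namely Col3a1, Col6a3, Col5a2, Col1a2, Col6a5, Col4a5 and Col6a1.

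Fibroblast and smooth muscle markers were high and low on many of the same arrays. Each list was read per array as the median over its genes of the log2 signal minus the vehicle mean. Only the collagen list was limited to genes above the highest array median. Of the others, 13 of 24 fibroblast, 9 of 17 smooth muscle and 5 of 12 endothelial markers lay above it. The 19 brighter collagens stood at -0.24, 0.16 and 0.11 on the vehicle arrays, -0.61, -0.32 and -0.27 with palbociclib 30, and -0.11, -0.03 and -0.20 with palbociclib 100. They stood at 0.05, 0.68 and 0.18 with abemaciclib 36, -1.0, 0.70 and -0.65 with abemaciclib 120, and 0.93, -0.20 and 0.22 with ribociclib 300. Over 24 fibroblast and matrix markers without collagens the values were -0.81, 0.27 and -0.13 with abemaciclib 120 and 1.16, -0.35 and 0.14 with ribociclib 300. Over 17 smooth muscle markers they were -0.26, 0.62 and -0.24 with abemaciclib 120 and 1.24, -0.05 and 0.22 with ribociclib 300. In each of the 3 lists abemaciclib 120 B was the highest array of its group and ribociclib 300 A of its own. Single genes did not all follow. Fbln1 of the fibroblast list gave 9.29 on ribociclib 300 B and 7.98 on A. Acta2 of the smooth muscle list was highest on ribociclib 300 B, at 8.19. With abemaciclib 120 Fbln1 was called lower and Smtn of the smooth muscle list higher, where 8.41% and 9.60% of all genes were. Both calls were lost without abemaciclib 120 A (adjusted p = 0.0720 and 0.118 in limma), among other settings. Other arrays differed between the lists. On abemaciclib 36 A the fibroblast list stood at -0.43 and the smooth muscle list at -0.15, with collagens at 0.05, and on palbociclib 100 B the smooth muscle list stood at 0.24, with collagens at -0.03.

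The endothelial median stood in the same order within these groups, at 0.60 on ribociclib 300 A, -0.35 on abemaciclib 120 A and 0.29 on abemaciclib 120 B. Pecam1 of that list was called lower with abemaciclib 120, by 0.72, where 8.41% of all genes were called lower. It gave 5.42 on abemaciclib 120 B, below the vehicle arrays at 5.55, 5.79 and 5.86. Its call was lost without vehicle A, B or C (adjusted p = 0.0537, 0.102 and 0.134 in limma), among other settings. Epithelial markers stayed between -0.24 and 0.03 on all arrays. The epithelial median also hides single genes. Cdx2 was called lower with ribociclib and Cldn7 with abemaciclib 120, where 2.74% and 8.41% of all genes were. Cdx2 lost its call with only the groups compared (adjusted p = 0.0826 in limma). Cldn7 lost its call with RNA quality as a covariate (0.0764), without vehicle C (0.0707) and without abemaciclib 120 A (0.105). Leukocyte markers lay at -2.34, -1.09 and -1.88 with abemaciclib 120, below vehicle on abemaciclib 120 B as well, where collagens were high, though B was again the highest of its group. They lay at -0.97, -1.38 and -0.30 with ribociclib 300, where array C and not A was highest, and at -0.78, -0.28 and -1.48 with palbociclib 100. The enteric glia and nerve list was dim, with 0 of 8 measured genes above the highest array median.

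**Figure D3:**
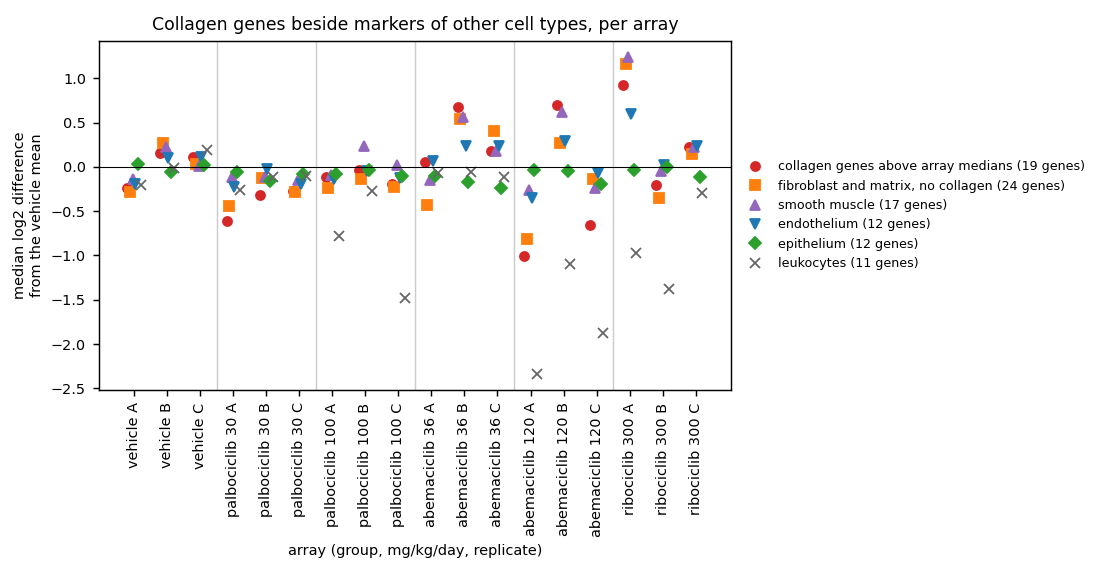
For each of the 18 arrays, the median over each list of the log2 signal minus the vehicle mean, for brighter collagens and 5 lists of cell type markers. Collagen, fibroblast and smooth muscle symbols are highest together on ribociclib 300 A, at 0.93, 1.16 and 1.24, while epithelial markers stay near 0 and leukocyte markers go down to -2.34 on abemaciclib 120 A.

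The next comparisons are each of a treated group with the same 3 vehicle arrays, so they share their controls. No collagen gene passed with palbociclib 30, though its arrays lay below the vehicle arrays for several type I, III, V and VI chains and not for Col1a1 or Col4a1. In limma 0 of 41 collagen genes were called (0 of all genes) and 0 had an unadjusted p under 0.05, against 2.51% of all genes. The 3 arrays lay below all vehicle arrays for 8 collagen genes (19.5%, against 6.39% of all genes) and above for 1, Col11a2 (4.82% of all genes). The 8 were Col1a2, Col3a1, Col5a2, Col6a1, Col6a2, Col6a3, Col12a1 and Col18a1. The log2 differences were -1.13 (SE 0.64) for Col1a2, -1.35 (SE 0.84) for Col3a1, -1.09 (SE 0.78) for Col6a3 and -0.72 (SE 0.52) for Col6a1, each with an adjusted p of 0.998 in limma. Beside Col1a2, the genes with the smallest p were Col9a3 and Col26a1, with log2 differences of 0.14 and 0.29, and for Col1a1 the log2 difference was -0.28. On these arrays the fibroblast markers stood at -0.44, -0.12 and -0.28 and smooth muscle markers at -0.12, -0.12 and -0.15, and their part in the collagen values was not tested.

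Palbociclib 100 gave no called collagen gene either. In limma 0 of 41 passed (0 of all genes) and 0 had an unadjusted p under 0.05, against 7.20% of all genes. Its arrays lay above all vehicle arrays for 3 collagen genes (7.32%, against 7.46% of all genes), Col1a1, Col4a6 and Col5a1, and below for 5 (12.2%, against 11.5%). Those shares are near those of all genes. The type I chains lay on opposite sides, with log2 differences of 0.26 (SE 0.35) for Col1a1 and -0.47 (SE 0.64) for Col1a2. The genes with the smallest p were Col11a2, Col26a1 and Col4a6, with log2 differences of 0.30, 0.32 and 0.26 and adjusted p of 0.709, 0.733 and 0.756 in limma. Col3a1 had a difference of -0.95 (SE 0.84) and Col5a2 of -0.77 (SE 0.65).

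With abemaciclib 36 no collagen gene passed, and the bright chains Col4a1, Col4a2 and Col5a1 lay above all vehicle arrays. In limma 0 of 41 collagen genes were called, against 2.08% of all genes (0.499% higher and 1.58% lower), and 1 had an unadjusted p under 0.05 (13.8% of all genes). That gene was Col5a1, with a log2 difference of 0.45 (SE 0.20, adjusted p = 0.338 in limma). Its arrays were 6.57, 6.68 and 6.72 and lay above all vehicle arrays. Col4a1 followed with 0.84 (SE 0.41, adjusted p = 0.388 in limma) and Col25a1 with 0.20 (SE 0.10, adjusted p = 0.414 in limma). The arrays lay above all vehicle arrays for 5 collagen genes (12.2%, against 7.95% of all genes), Col4a1, Col4a2, Col5a1, Col9a1 and Col23a1, and below for 0 (12.3% of all genes). Type I and III chains overlapped with vehicle, with differences of 0.03 for Col1a1, 0.26 for Col1a2 and 0.12 for Col3a1.

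Abemaciclib 120 changed 2 collagen genes, Col9a1 upward and Col17a1 downward, as given above. That is 4.88% of the collagen genes, against 18% of all genes called in limma in this comparison (9.60% higher and 8.41% lower). An unadjusted p under 0.05 was found for 5 collagen genes, against 29.7% of all genes. The arrays lay below all vehicle arrays for 5 collagen genes (12.2%, against 18.7%), Col8a1, Col10a1, Col11a1, Col13a1 and Col17a1, and above for 1 (18.6%). For the main stromal chains the log2 differences were -0.87 (SE 0.84) for Col3a1, -0.71 (SE 0.35, adjusted p = 0.189 in limma) for Col1a1, -0.45 (SE 0.64) for Col1a2 and -0.41 (SE 0.78) for Col6a3. Col18a1 had -0.50 (SE 0.23, adjusted p = 0.162 in limma), and Col4a1 and Col4a2 had 0.00 and 0.11. The group was split, with arrays A and C low and B high for the fibre-forming chains.

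These counts changed when single arrays were left out. Without abemaciclib 120 B, the array whose title gives 100 mg/kg, 5 collagen genes were called in limma (12.2%, against 17.6% of all genes in that setting). Col1a1 then fell by 1.23 (adjusted p = 0.00583 in limma), Col6a2 by 1.13 (adjusted p = 0.0278 in limma) and Col18a1 by 0.73 (adjusted p = 0.0439 in limma), beside Col9a1 and Col17a1. Without abemaciclib 120 A or vehicle A the count was 1 (2.44%), against 9.49% and 12.6% of all genes. With the smooth muscle level of each array as a covariate, added after seeing the data, 3 were called, Col6a5 (-0.94, adjusted p = 0.0305 in limma), Col9a1 and Col17a1.

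With ribociclib 300, most collagen differences were positive and 1 gene, Col9a3, passed. That is 2.44% of the collagen genes, against 3.73% of all genes (0.999% higher and 2.74% lower). An unadjusted p under 0.05 was found for 6 collagen genes, against 20.2% of all genes. The arrays lay above all vehicle arrays for 6 collagen genes (14.6%, against 10.4% of all genes), Col6a6, Col8a1, Col9a3, Col11a2, Col26a1 and Col27a1, and below for Col17a1 alone (14% of all genes). Of the 6, Col11a2 is the only one above the array medians. Main stromal chains had log2 differences of 0.70 (SE 0.41) for Col4a1, 0.56 (SE 0.65) for Col5a2, 0.47 (SE 0.78) for Col6a3, 0.37 (SE 0.35) for Col1a1, 0.36 (SE 0.64) for Col1a2 and 0.10 (SE 0.84) for Col3a1. None of these passed. Arrays A and C lay above all vehicle arrays for Col1a1, Col1a2, Col4a1, Col5a2 and Col6a3, and array B lay within or below the vehicle range for each of the 6. The median difference over the 41 genes was 0.19, and 0.06 without ribociclib 300 A. With the smooth muscle level as a covariate it was 0.02.

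**Figure D4:**
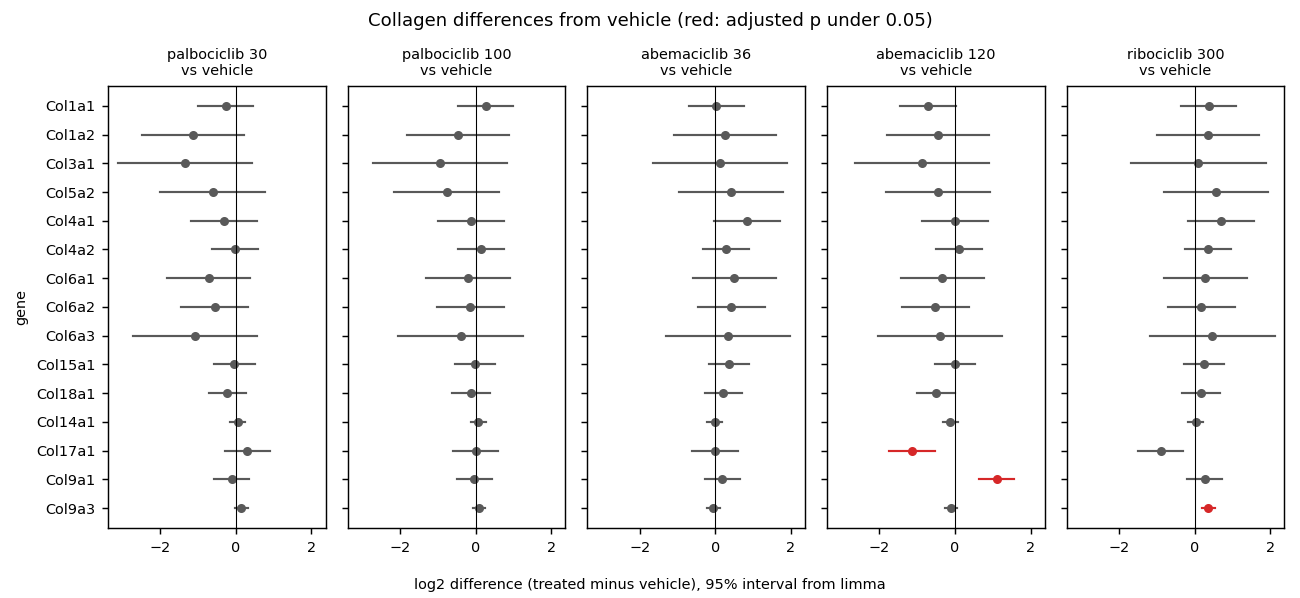
Log2 difference from vehicle of 15 collagen genes in each treated group, with the 95% interval from limma; red marks an adjusted p under 0.05. The intervals of Col3a1 and Col6a3 are the widest, and the only red points are Col17a1 and Col9a1 with abemaciclib 120 and Col9a3 with ribociclib 300.

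The medians over all 41 collagen genes stayed small in every comparison with vehicle. They were -0.01 with palbociclib 30, 0.03 with palbociclib 100, 0.15 with abemaciclib 36, -0.12 with abemaciclib 120 and 0.19 with ribociclib 300, where the medians over all genes were -0.03, 0.00, 0.01, -0.02 and 0.00. Over the 19 brighter collagens they were -0.32, -0.12, 0.29, -0.34 and 0.29. Centring each array on its median gene turned the sign for palbociclib 30 over the 41 genes, to 0.13, and over the 19 brighter genes left -0.18, -0.00, 0.36, -0.45 and 0.46. That scaling moves the groups because the median signal of the 14217 genes differed from vehicle by -0.14, -0.11, -0.07, 0.11 and -0.18 in the same order. With the smooth muscle level as a covariate, the medians of the 19 were -0.13, -0.15, 0.11, -0.35 and -0.12, so only ribociclib turned sign.

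The doses of a compound were also compared. Abemaciclib 120 against abemaciclib 36 called 2 collagen genes in limma (4.88%, against 7.59% of all genes), Col9a1 upward and Col17a1 downward (4.82% and 2.77% of all genes). An unadjusted p under 0.05 was found for 10 collagen genes, against 21.0% of all genes. The arrays lay lower for 5 collagen genes (12.2%, against 11.8% of all genes), Col10a1, Col13a1, Col17a1, Col18a1 and Col20a1, and higher for Col9a1 (11.7% of all genes). The count moved with single arrays, with 0 called without abemaciclib 120 A or abemaciclib 36 A, 1 without abemaciclib 36 C and 6 without abemaciclib 120 B. The shares of all genes called in those settings were 2.79%, 3.40%, 9.45% and 8.25%. The 6 do not include Col17a1. Palbociclib 100 against 30 called 0 collagen genes in limma (0 of all genes), and 0 collagen genes had an unadjusted p under 0.05, against 4.35% of all genes. Its arrays lay higher for 5 collagen genes (12.2%, against 7.11%), Col1a1, Col1a2, Col4a4, Col6a2 and Col6a3, and lower for 1 (6.32%), Col24a1. The log2 differences with the smallest p were 0.16 (SE 0.09) for Col4a4, 0.54 (SE 0.35) for Col1a1 and 0.08 (SE 0.07) for Col6a6, each with an adjusted p of 0.997 in limma.

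Genes that act on collagen were read from lists of their own. These lists, like the collagen classes, were drawn up with earlier results of these data known. Of 23 enzymes of collagen synthesis and crosslinking, 1 rose with abemaciclib 120, P3h4, a partner of the lysyl hydroxylation complex, by 0.89 (adjusted p = 0.0112 in limma), where 9.60% of all genes were called higher. In the other comparisons with vehicle 0 passed, and at most 3 had an unadjusted p under 0.05 in limma, the 3 being with ribociclib, where 20.2% of all genes did. The call of P3h4 was lost with RNA quality as a covariate (adjusted p = 0.0975 in limma). Its vehicle signals, 4.51, 4.72 and 4.68, lay below the array medians, and its highest array was ribociclib 300 C at 5.85. The collagen chaperone Serpinh1 was highest on ribociclib 300 A, at 8.27, as most bright chains were. Its lowest array was ribociclib 300 B, at 4.71, which was lowest for 0 of the 19 brighter collagens, and abemaciclib 120 A stood at 4.85. Of 6 measured collagen receptors, 0 passed in any comparison with vehicle, and at most 2 had an unadjusted p under 0.05 in limma.

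Among 13 measured genes of collagen degradation, Timp1, an inhibitor of matrix metalloproteinases, gave 5.51, 6.57 and 6.39 with vehicle and 8.25, 8.21 and 7.86 with ribociclib 300. All ribociclib arrays lay above all vehicle arrays, and Timp1 rose by 1.95 (SE 0.32, adjusted p = 0.00494 in limma). It gave 7.99, 7.55 and 6.90 with abemaciclib 120 and rose there by 1.32 (SE 0.32, adjusted p = 0.0084 in limma). Timp1 also lay above all vehicle arrays with palbociclib 100, at 7.07, 7.10 and 7.64, and with abemaciclib 36, at 7.74, 7.03 and 7.28. It was not called in those groups, and its palbociclib 30 arrays overlapped with vehicle. The gelatinase Mmp9, which cleaves denatured collagen, gave 6.20, 5.96 and 6.17 with vehicle and 3.94, 4.15 and 3.81 with abemaciclib 120, and fell by 2.14 (SE 0.39, adjusted p = 0.00118 in limma). Neutrophils and macrophages are known to make Mmp9, and the leukocyte list was low on the same arrays. Mmp9 also lay below all vehicle arrays with abemaciclib 36 and with both palbociclib doses, without being called. With abemaciclib 36 the median of the leukocyte list stood between -0.11 and -0.06, within the range of the vehicle arrays. That median hides single genes. Cd8a gave 5.11, 5.80 and 5.63 there against 6.80, 6.96 and 7.24 with vehicle. Cd3e gave 6.35, 7.19 and 7.20 against 7.88, 8.09 and 8.30. Cd8a and Lck were called lower, where 1.58% of all genes were, and lost their calls in some settings. With palbociclib 100 the leukocyte list lay below the vehicle arrays. The part of leukocytes in the value of Mmp9 was not tested. The collagen-degrading protease Ctsk gave 4.91, 4.69 and 4.82 with vehicle and 6.11, 6.49 and 5.57 with abemaciclib 36, where it rose by 1.25 (SE 0.27, adjusted p = 0.0247 in limma). The ribociclib call of Timp1 was lost when only the 2 groups were fitted (adjusted p = 0.0565 in limma), and its abemaciclib 120 call without abemaciclib 120 A (adjusted p = 0.0586 in limma) or vehicle A (0.0514). The call of Ctsk held in 23 of 28 settings and that of Mmp9 in 28 of 28. The vehicle signals of Ctsk lay below the array medians.

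Transforming growth factor beta is a known inducer of collagen genes. Of 14 measured genes of its pathway, 5 fell with abemaciclib 120 and 0 rose, where 8.41% of all genes were called lower and 9.60% higher. The 5 were Tgfbi, Tgfbr1, Tgfb1, Smad3 and Smad4. The matrix protein Tgfbi, a target of the pathway, fell by 1.24, the receptor Tgfbr1 by 1.19, the transducer Smad4 by 0.60 and the ligand Tgfb1 by 0.54, with adjusted p of 0.00106, 0.00147, 0.0313 and 0.0112 in limma. The calls of Tgfbi and Tgfbr1 held in 28 of 28 settings, that of Smad4 in 23 and that of Tgfb1 in 25. Smad4 was lost with RNA quality as a covariate (adjusted p = 0.117 in limma), without vehicle A, B or C (0.108, 0.0776 and 0.0586) and without abemaciclib 120 A (0.160). Tgfb1 was lost without vehicle B or C (0.0502 and 0.0604) and without abemaciclib 120 A (0.0720). Its signals, 4.54 to 5.39 over all arrays, lay below the array medians. Tgfbi gave 12.14, 11.89 and 11.94 with vehicle and 10.52, 11.32 and 10.41 with abemaciclib 120, without overlap. With abemaciclib 36, where 1.58% of all genes were called lower, 3 fell, namely Smad2 by 0.89, Smad4 by 0.80 and Tgfbr1 by 0.92 (adjusted p = 0.0247, 0.0335 and 0.0425 in limma). Their calls held in 22, 19 and 14 of 28 settings. With ribociclib, where 0.999% of all genes were called higher, 2 rose, Smad7, an inhibitor of the pathway, by 1.31 (adjusted p = 0.0342 in limma) and the matricellular target Ccn2 by 1.79 (adjusted p = 0.0467 in limma). The call of Smad7 held in 22 of 28 settings, and was lost with only the groups compared (adjusted p = 0.0783 in limma), with the smooth muscle covariate (0.0671), without vehicle A, B or C (0.0651, 0.145 and 0.0961) and without ribociclib 300 C (0.112). The call of Ccn2 held in 8 of 27 settings, and ribociclib 300 A was its highest array at 6.56. Its vehicle signals, 3.58, 4.20 and 3.86, lay below the array medians. Smad7 also lay above all vehicle arrays with abemaciclib 36, at 10.21, 11.61 and 10.26 against 9.67, 9.15 and 9.55. Tgfbr1 lay below all vehicle arrays with palbociclib 100 too, at 9.48, 9.54 and 9.81, and with ribociclib, at 9.71, 9.26 and 9.74. In both palbociclib comparisons with vehicle 0 genes of these lists passed in limma, and no list held more than 1 gene with an unadjusted p under 0.05.

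Second probe sets allow a check on the array pattern. For the 5 genes whose second probe set also had a mean above the highest array median, Col1a2, Col4a1, Col5a1, Col5a2 and Col18a1, both probe sets were highest on ribociclib 300 A. In 3 of the 5, both were lowest on the same array, abemaciclib 120 A. The second probe set of Col5a2 lay on the same side of its vehicle mean as the first on 18 of 18 arrays, that of Col1a2 and that of Col4a1 on 16, that of Col18a1 on 15 and that of Col5a1 on 11. The second probe set of Col6a3 had a mean of 4.58, below the array medians, and matched in side on 9 arrays only. Of the other bright genes, that of Col1a1 (mean 5.14) matched on 17 arrays, that of Col15a1 (4.79) on 13 and that of Col6a2 (5.31) on 12. The further probe sets of Col12a1 (4.31 and 4.29) matched on 12 and 8. All of these means lay below the array medians. The array order given for Col6a3, Col6a2 and Col12a1 rests on the brightest probe set of each.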

How the data were processed

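The deposited table holds log2 signals from 2.86 to 14.34 for every probe set on every array. The submitters' processing notes name RMA and the Affymetrix programs Expression Console and Transcriptome Analysis Console and give no version. RMA as usually run makes the distribution of signal alike between arrays, so a change in total RNA per cell would not be visible. Of 31099 probe sets, 57 controls were left out, 20826 had 1 symbol, 436 had several and 9780 were unnamed in the annotation used. Arrays were grouped by treatment label, and their number limits the precision.

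The members, gene lists and comparisons were chosen with earlier results of these data known. Group means were estimated for all 14217 genes at once with limma 3.58.1 in R 4.3.3 (eBayes with trend, two-sided, 12 residual degrees of freedom), and p-values were adjusted over all genes by the method of Benjamini and Hochberg. The fit was run on simulated data with independent noise and the same spread of a gene in every group. That setting does not cover the unequal group spreads or shared array differences of the collagen genes. Genes named are those called, or the 3 with the smallest p, with a set of 13 stromal and epithelial collagens, and up to 4 called genes of each companion list. Others named for an extreme value or array were chosen after their values were seen.

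Alternatives were quantile re-normalization, centring, a filter on the dimmest genes (mean signal under the 30th percentile), other probe set choices, no trend, only the groups compared, the replicate block, an RNA quality covariate, a smooth muscle covariate added later, and leaving out each array. Promoters were matched by symbol in RefSeq's GRCr8 table, with 32 of 41 genes found.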

Additional observations from a re-analysis of the deposited data

How the results depend on the processing

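Of 3113 values of single genes under the alternatives, 2956 kept their side of the threshold, 154 lost a call, 3 gained one and 0 called values turned sign. Among uncalled values, 88 changed sign. With dim genes left out, the called counts were 1 for abemaciclib 120, 0 for ribociclib, 1 for abemaciclib 120 against 36 and 1 over the 6 groups, since fewer collagen genes are then tested, and the palbociclib 30 median was -0.22. The collagen level then was -0.24, -0.20 and -0.25 on palbociclib 30 A, B and C, 0.50 on abemaciclib 36 B, -0.92, 0.45 and -0.30 on abemaciclib 120 A, B and C, and 0.79 and -0.16 on ribociclib 300 A and B. Centring gave medians of 0.13 for palbociclib 30, 0.37 for ribociclib and -0.43 for abemaciclib 120 against 36, and counts of 4 there and 11 over the 6 groups. It gave array levels of 0.24 and 0.19 on palbociclib 30 A and B, 0.18 and 0.26 on palbociclib 100 A and C, 0.18 and 0.27 on abemaciclib 36 A and B, -0.48 on abemaciclib 120 A, and 0.18 and 0.37 on ribociclib 300 B and C. Fitting only the groups compared gave 0 for ribociclib and 0 for abemaciclib 120 against 36. RNA quality as a covariate gave 1 for abemaciclib 120, 0 against abemaciclib 36 and 2 over the 6 groups. The smooth muscle covariate, chosen after seeing the data, gave 4 for abemaciclib 120 against 36 and a ribociclib median of 0.0157. For all of these other than the dim-gene counts, the cause was not tested.

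Leaving out 1 array gave 1 to 5 calls for abemaciclib 120, 0 to 2 for ribociclib, 0 to 6 for abemaciclib 120 against 36 and 3 to 7 over the 6 groups, and a ribociclib median of 0.0604 to 0.27. With the replicate letter as a replicate block the counts stayed at 2, 1, 2 and 4, with Col8a1 lost over the 6 groups (adjusted p = 0.0641 in limma) and Col13a1 gained. Arrays of the same letter did not deviate together, with correlations of -0.31 to 0.59 over 45 pairs and a median of 0.05. Signal limits 22 of the 41 genes, whose levels are not shown to be above background.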
